A study of Rattus rattus with 8 samples.

Results

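Cytochrome c oxidase, complex IV of the respiratory chain, passes electrons from cytochrome c to oxygen in the inner mitochondrial membrane. Its catalytic core is encoded in the mitochondrial genome, and nuclear genes encode the smaller subunits around it. Several of these small subunits come in alternative forms: a ubiquitous form, often called the liver type, and a form restricted to heart and skeletal muscle or raised by low oxygen. The set described here consists of 10 gene names: the muscle forms Cox6a2 and Cox8b, their ubiquitous partners Cox6a1 and Cox8a, the ubiquitous Cox4i1 and its hypoxia-inducible partner Cox4i2, Ndufa4 and its hypoxia-inducible relative Ndufa4l2, and Cox7a2 with its relative Cox7a2l. Genes were taken by symbol from the expression table, where 11 of 30957 rows carry these names, because Cox7a2 has 2 rows. All 11 rows had enough counts to be tested. No row carries the symbol of the muscle form Cox7a1, so it was not analysed here. The row annotated as 7A1-like, LOC100910772, held 6 counts over all 8 libraries.

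RNA was sequenced from neonatal cardiomyocyte cultures of SD rats, prepared 1 to 3 days after birth. The 4n group holds 4 libraries of cells sorted for tetraploid DNA content, and the 2n group 4 libraries of cells sorted for diploid content. Both groups came from the same kind of culture: 24 h with AraC at 0.2 mM, which blocks DNA synthesis, and an insulin, transferrin and selenium supplement, then serum starvation and 48 h at 1% oxygen. Sorting was on a Hoechst dye at 2 µg/mL, whose DNA signal does not separate a tetraploid nucleus from a cell with 2 nuclei, a cell in G2 or a pair of 2n cells stuck together. No normoxic library was analysed, so the data hold no measure of induction by hypoxia. The labels call the species Rattus rattus, while the strain and the genome build are of Rattus norvegicus.

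Libraries held 14783521 to 21033772 counts. The 11 cardiomyocyte markers summed to 4114 to 29949 CPM in the 4n libraries and 496 to 960 CPM in the 2n libraries, where CPM is the read count scaled to a common library size by the TMM method. The 10 fibroblast markers summed to 30766 to 54163 CPM in 4n and 46555 to 60502 CPM in 2n, above the cardiomyocyte sum in each of the 8 libraries. Most of the fibroblast sum came from Col1a1 and Col3a1, at 16271 and 10158 of 30766 CPM in 4n replicate 3. Sums of different genes do not measure the proportions of cell types. Of these fibroblast markers edgeR called 0, with 3 lower at unadjusted p under 0.05, while 3 were called lower under a replicate block and 1 by DESeq2. Endothelial markers summed to 77.7 to 420 CPM in 4n and 32.9 to 63.5 CPM in 2n. By edgeR 0 of these 7 markers were called, with 6 higher at unadjusted p under 0.05, while 5 were called under a replicate block and 3 of the 5 that DESeq2 tested. The 8 immune markers summed to 4.15 to 16.3 CPM in 4n and 3.71 to 7.81 CPM in 2n. Of these edgeR tested 2 and called 0, with 0 at unadjusted p under 0.05, while DESeq2 tested 5 and called 2 higher. The part of these other cell types in the results was not tested. Genes of the mitochondrial chromosome took 24.1% to 25.9% of the counts in 4n replicates 2, 3 and 4, 3.71% in 4n replicate 1 and 2.87% to 3.82% in the 2n libraries. Libraries with the same replicate number deviated together from their group means (correlations from 0.27 to 0.65), and are called here the 2 fractions of a culture.

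The muscle forms Cox6a2 and Cox8b rose in 4n cells, to 24.0 and 33.8 times the 2n mean CPM. The ubiquitous forms Cox4i1, Cox6a1 and Cox8a rose as well, to between 2.00 and 3.05 times the 2n mean CPM. The hypoxia-inducible forms Cox4i2 and Ndufa4l2, and also Cox7a2l, did not pass the test between 4n and 2n. Ndufa4 and both rows of Cox7a2 did not pass it either, although every 4n library lay above every 2n library in them. Of the 11 rows, 5 were called higher in 4n and 0 lower (quasi-likelihood test of edgeR, p under 0.05 after Benjamini-Hochberg adjustment), against 2.67% of all 12983 genes tested called higher and 0.0077% called lower. DESeq2 also called 0 lower, and no row had a negative fold at an unadjusted p under 0.05 by either tool. The median log2 fold change of the 11 rows was 1.46, against -0.01 over all genes tested. In 8 of the 11 rows every 4n library lay above every 2n library, which held for 7.68% of all genes, and 9 of 11 were higher in 4n in all 4 cultures, which held for 20.2% of all genes. Cox8b is in each of these counts of rows higher in 4n, although it passed the count filter only through 4n.

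**Figure D1:**
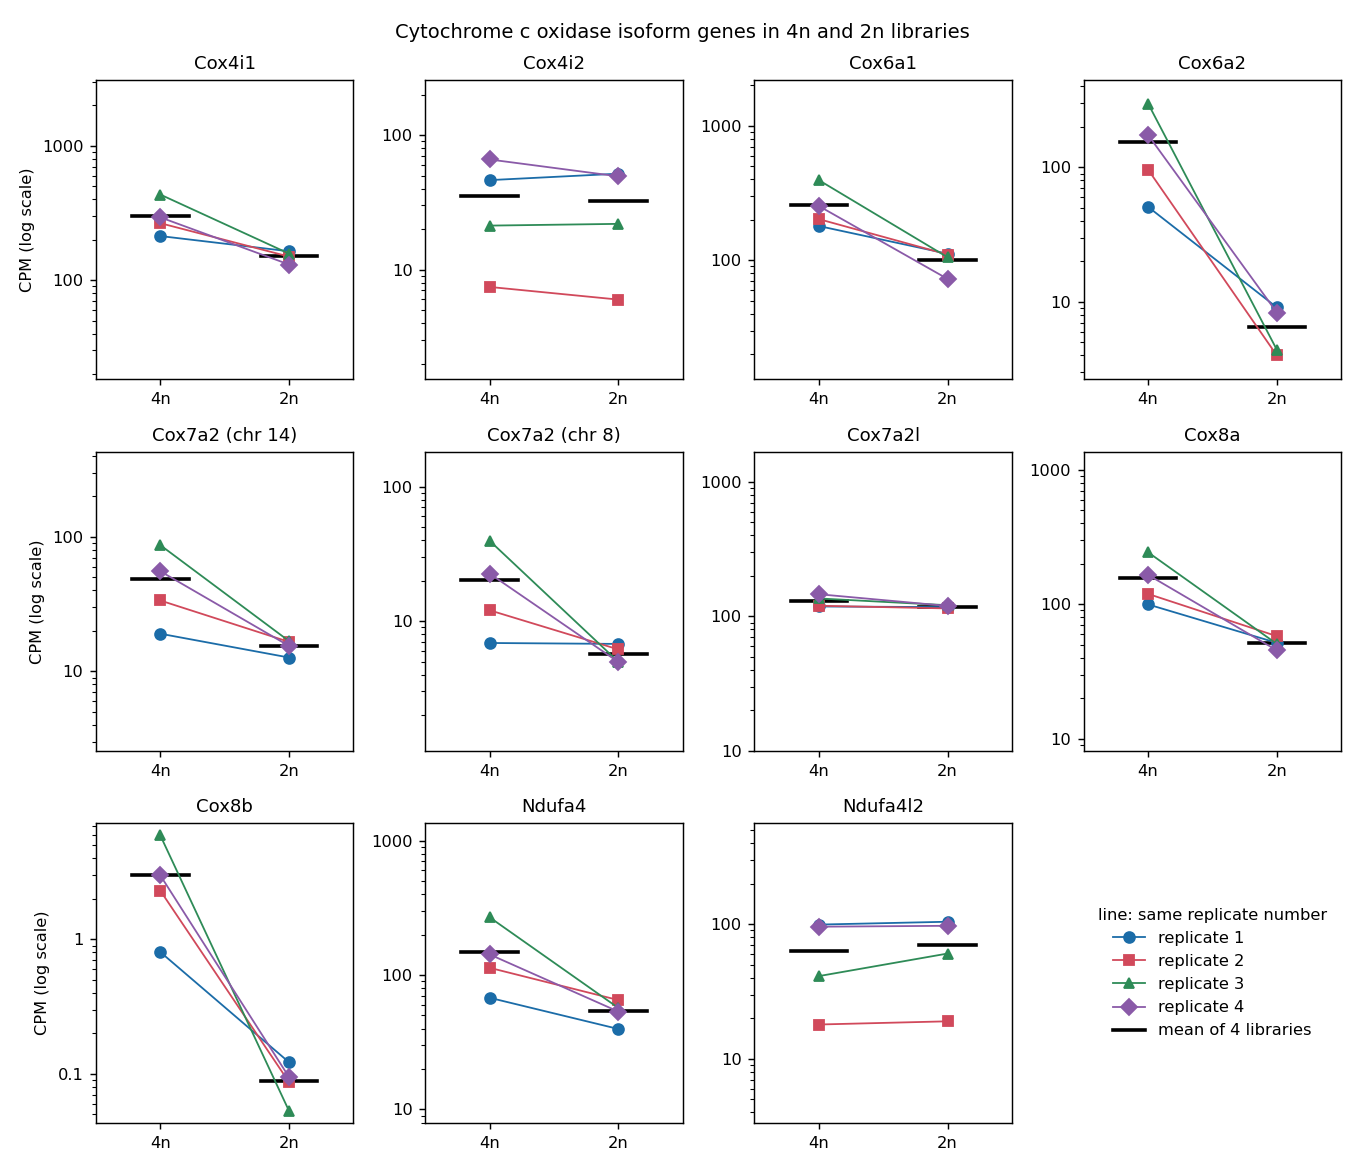
CPM of the 11 rows in each library, on log axes that all span the same number of decades, with 4n on the left and 2n on the right of each panel. Each line joins the libraries of 1 replicate number and black bars are means of 4 libraries. Cox6a2 and Cox8b drop steeply from left to right, while in the Cox4i2 and Ndufa4l2 panels the lines are nearly flat and lie at different heights.

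Cox6a2 encodes the heart and skeletal muscle form of subunit VIa, a regulatory subunit on the outside of the complex. The gene lies on chromosome 1 from 199624037 to 199624783 in Rnor_6.0. Its level was 50.8, 96.1, 298 and 174 CPM in 4n replicates 1 to 4, against 9.08, 3.99, 4.40 and 8.33 CPM in 2n replicates 1 to 4. The groups did not overlap, and the lowest 4n library, replicate 1, belonged to the culture with the highest 2n level. The mean was 155 ± 108 CPM for 4n and 6.45 ± 2.63 CPM for 2n (± SD, 4 libraries per group). The log2 fold change came to 4.59 ± 0.58 (SE; edgeR adjusted p = 0.0252). For Cox6a2 it was 4.27 on total-count scaling and 4.05 to 4.88 on leaving out 1 library, lowest without 4n replicate 3. Under the replicate block and without the culture of replicate 3 it was 3.83 (edgeR adjusted p = 0.0558). Within the cultures of replicates 1 to 4 the log2 difference of 4n minus 2n was 2.47, 4.56, 6.05 and 4.37. Fewer cells of a type and less RNA per cell cannot be told apart in such sorted pools.

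Cox8b, the muscle form of the small subunit VIII, is on chromosome 1 from 213648787 to 213650247. It was the least abundant of the 11 rows in both groups. The libraries held 15, 31, 83 and 41 counts in 4n replicates 1 to 4, against 2, 2, 1 and 2 counts in 2n. Only the 4n libraries carried Cox8b past the count filter. A gene this low in 2n could be tested only if it was higher in 4n, so the filter partly fixed the direction. The 4n group had 170 counts in all and the 2n group 7, a ratio per scaled library size of 32.3, with an exact 95% interval of 15.3 to 81.6 that covers counting error only. In CPM the mean was 3.01 ± 2.16 in 4n and 0.0891 ± 0.0284 in 2n (± SD, 4 libraries per group), and the log2 fold change was 4.97 ± 0.70 (SE; edgeR adjusted p = 0.0252). As for Cox6a2, 4n replicate 3 was highest and 4n replicate 1 lowest in the 4n group.

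The rise of the muscle forms came with a rise of cardiomyocyte markers. All 11 of these markers were called higher in 4n, and none was at 0 in any library. Their summed CPM was 16.9 times as high in 4n as in 2n on average, and that of Cox6a2 24.0 times. Per 1000 counts of the marker sum, Cox6a2 had 12.4, 12.2, 9.95 and 15.97 counts in 4n replicates 1 to 4 and 9.46, 8.04, 5.92 and 8.96 counts in 2n. On this scale the 4n mean was 1.56 times the 2n mean, and every 4n value lay above every 2n value. For Cox8b the same quantity was 0.240 ± 0.0502 in 4n and 0.119 ± 0.0438 in 2n (± SD, 4 libraries per group). These ratios depend on the markers summed. Tnnt2, with the smallest log2 fold change of the list, held 252 of the 496 CPM of the sum in 2n replicate 2. Marker by marker, the log2 fold changes ran from 2.94 to 4.60, and the 4.59 of Cox6a2 lay within that range. In 4n replicate 1 Tnnt2 held 513 of the 4114 CPM of the sum. With Tnnt2 left out of the sum, Cox6a2 per 1000 counts would be higher in 2n replicate 2 than in 4n replicate 1. The groups would then overlap for Cox6a2, so their separation on this scale rests on Tnnt2. The part of the marker difference in the isoform difference was not tested.

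Of the ubiquitous forms, Cox4i1 encodes the common form of subunit IV, the largest nuclear-encoded subunit and the site where ATP regulates the enzyme. Cox4i1 lies on chromosome 19 from 54245950 to 54252225. It stood at 213, 265, 433 and 293 CPM in 4n replicates 1 to 4, against 164, 150, 158 and 131 CPM in 2n. All 4n libraries lay above all 2n libraries, and 4n replicate 3 was highest. The log2 fold change was 1.00 ± 0.21 (SE; edgeR adjusted p = 0.0396), and on total-count scaling it was 0.73 and no longer passed (edgeR adjusted p = 0.0631), nor did it with limma on FPKM (adjusted p = 0.0685).

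Cox6a1, the ubiquitous partner of Cox6a2, is on chromosome 12 from 47024442 to 47027495. It had 180, 202, 394 and 253 CPM in 4n replicates 1 to 4, against 112, 110, 105 and 72.6 CPM in 2n. The groups did not overlap, and the lowest 2n value, in replicate 4, stood apart from the other 3. Cox6a1 rose by 1.36 ± 0.26 on the log2 scale (SE; edgeR adjusted p = 0.0298).

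Cox8a, the ubiquitous form of subunit VIII, is on chromosome 1 from 222466575 to 222468896. Its level was 99.6, 119, 243 and 165 CPM in 4n replicates 1 to 4, against 51.6, 57.8, 50.6 and 45.4 CPM in 2n. The lowest 4n library was above the highest 2n library. The log2 fold change of Cox8a was 1.61 ± 0.26 (SE; edgeR adjusted p = 0.0252). Cox4i1, Cox6a1 and Cox8a shared the order of the muscle forms among the 4n libraries, with replicate 3 highest, then replicates 4, 2 and 1.

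Ndufa4 was first assigned to complex I and is now counted as a subunit of complex IV. The gene is on chromosome 4 from 38233680 to 38240848. It had 67.7, 113, 269 and 142 CPM in 4n replicates 1 to 4, against 39.7, 65.1, 56.9 and 53.5 CPM in 2n. The groups did not overlap, but 4n replicate 1 exceeded 2n replicate 2 by little. Ndufa4 had a log2 fold change of 1.46 ± 0.37 (SE) and did not pass (edgeR adjusted p = 0.0801; 0.0537 when the replicate number entered as a block).

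Cox7a2 encodes the liver-type form of subunit VIIa. Its row on chromosome 8, from 87209530 to 87213627, spans 4098 bases with a counted length of 478. The other row, on chromosome 14 from 52661966 to 52662217, spans 252 bases, all of them counted, so that its annotation has no intron. The chromosome 14 row took 68.7% to 73.7% of the summed counts of both rows in 4n and 65.2% to 77.1% in 2n. How the counting divided reads between these copies is not given in the sources used here, and the level of either row is uncertain. The log2 fold changes were 1.82 ± 0.47 for the chromosome 8 row and 1.66 ± 0.40 for the chromosome 14 row (SE; edgeR adjusted p = 0.0845 and 0.0662). With both rows summed, an alternative added after seeing the data, it was 1.71 ± 0.41 (SE; edgeR adjusted p = 0.0669). In 4n replicate 1 the chromosome 8 row stood at 6.88 CPM, close to the 6.77 CPM of its 2n partner.

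Cox7a2l, also known as the supercomplex assembly factor SCAF1, helps join complex IV to complex III. It lies on chromosome 6 from 6695827 to 6709783. It was the steadiest of the 11 rows, at 119, 120, 136 and 146 CPM in 4n replicates 1 to 4 and 117, 115, 121 and 120 CPM in 2n. The highest of the 8 libraries was 1.28 times the lowest. The log2 fold change was 0.14 ± 0.11 (SE; edgeR adjusted p = 0.544), and it was -0.10 on total-count scaling, so its direction rests on the scaling. That scaling also shifted the median of all genes to -0.25.

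Cox4i2 encodes a form of subunit IV known from lung and from other oxygen-sensing cells, and is induced by low oxygen in several cell types. The gene lies on chromosome 3 from 148234193 to 148245416. Its level was 46.3, 7.44, 21.3 and 66.0 CPM in 4n replicates 1 to 4, against 51.7, 5.99, 21.9 and 49.4 CPM in 2n. The groups overlapped, and both fractions of replicate 2 were lowest. The log2 fold change was 0.13 ± 0.73 (SE; edgeR adjusted p = 0.946). Under the replicate block it was 0.12 ± 0.13 (SE; edgeR adjusted p = 0.541), and it was -0.061 on total-count scaling, which shifted the median of all genes from -0.01 to -0.25.

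Ndufa4l2 encodes a relative of Ndufa4 that hypoxia-inducible factor 1 switches on, and that lowers mitochondrial oxygen use under hypoxia. It is on chromosome 7 from 70821957 to 70824085. It had 99.6, 18.0, 41.2 and 96.1 CPM in 4n replicates 1 to 4, against 105, 19.0, 60.7 and 97.5 CPM in 2n. The groups overlapped again, and 4n was below 2n in 4 of 4 cultures, by 0.07, 0.08, 0.56 and 0.02 on the log2 scale. The log2 fold change was -0.14 ± 0.60 (SE; edgeR adjusted p = 0.927) and -0.18 ± 0.11 with the block (SE; edgeR adjusted p = 0.316).

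**Figure D2:**
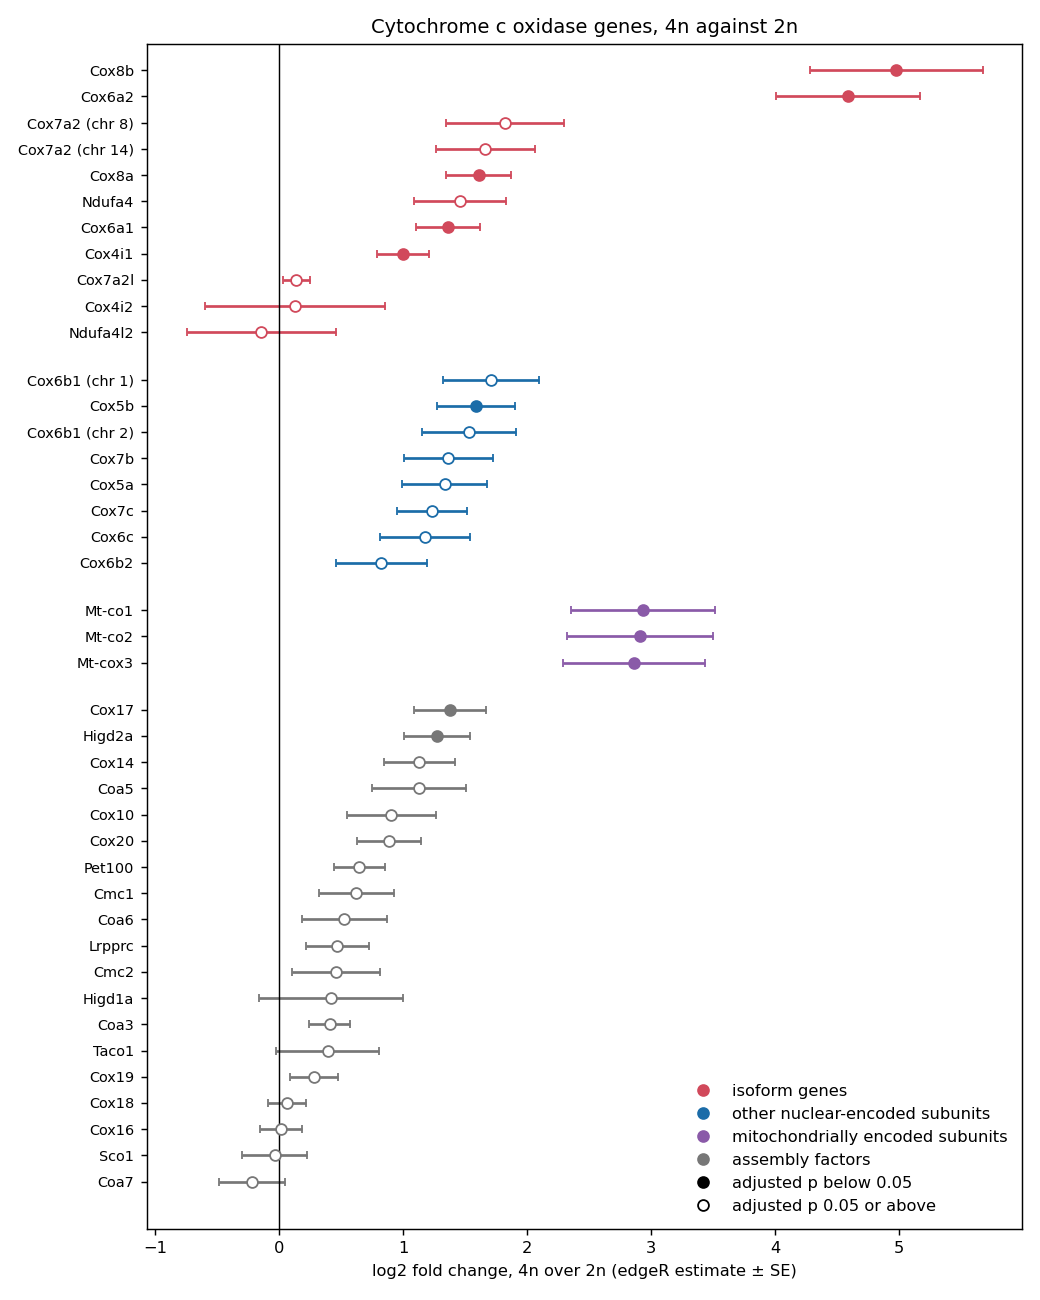
edgeR log2 fold change of 4n over 2n with its standard error for the isoform genes, the other nuclear-encoded subunits, the mitochondrially encoded subunits and the assembly factors of cytochrome c oxidase that were tested. Filled points passed the threshold. Cox8b and Cox6a2 lie at 4.97 and 4.59, the mitochondrially encoded subunits near 2.9, and Cox4i2, Ndufa4l2 and Cox7a2l near 0.

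With the replicate block Cox4i1, Cox6a1, Cox6a2, Cox8a and Cox8b passed again, and no other row did (edgeR adjusted p from 0.0131 to 0.0437). These calls depend on single libraries. Without 4n replicate 4, or without any of the 4 2n libraries, edgeR called 0 of the 11 rows and 0 of all genes. There the 5 genes had an adjusted p from 0.0629 to 0.134, while 8 rows remained at an unadjusted p under 0.05. Without 4n replicate 1, 8 rows were called, beside 870 of 13104 genes called higher. Without 4n replicate 2 the call of Cox4i1 was lost (edgeR adjusted p = 0.0554). Limma-voom called 0 rows and 0 of all genes, with 8 rows at an unadjusted p under 0.05. DESeq2 called 8 rows, beside 926 genes called higher.

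The balance within each pair of alternative genes was measured as a share of their summed FPKM, the authors' deposited value per length and library size, which does not depend on library size within a library. Cox6a2 made up 24.6%, 35.5%, 46.6% and 44.3% of Cox6a1 plus Cox6a2 in 4n replicates 1 to 4, against 8.58%, 4.02%, 4.61% and 11.7% in 2n. The share was higher in 4n in 4 of 4 cultures and the groups did not overlap. The mean was 37.8% ± 9.97 for 4n and 7.23% ± 3.61 for 2n (SD, n = 4 each; exact two-sided permutation test, p = 0.0286, the smallest that 4 against 4 allows, and 0.0571 adjusted over the 4 pairs of genes).

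Cox8b made up only 1.24%, 2.91%, 3.65% and 2.74% of Cox8a plus Cox8b in 4n replicates 1 to 4, against 0.365%, 0.232%, 0.162% and 0.322% in 2n. The groups did not overlap, and the difference of 2.36 percentage points had the same exact permutation p of 0.0286, or 0.0571 adjusted over the 4 pairs of genes. The muscle form of subunit VIa came near the level of its partner in 4n replicates 3 and 4, the libraries highest in cardiomyocyte markers, whereas that of subunit VIII made up under 4% in all 8 libraries.

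The shares of the hypoxia-inducible forms were lower in 4n within each culture. Ndufa4l2 made up 55.0%, 11.7%, 11.3% and 36.0% of Ndufa4 plus Ndufa4l2 in 4n replicates 1 to 4, against 68.7%, 19.5%, 47.0% and 60.3% in 2n. Cox4i2 made up 13.1%, 1.90%, 3.29% and 13.5% of Cox4i1 plus Cox4i2 in 4n, against 17.9%, 2.70%, 8.78% and 20.7% in 2n. Both shares were lower in 4n in 4 of 4 cultures, and for both the groups overlapped (exact two-sided permutation test, p = 0.229 for Ndufa4l2 and 0.400 for Cox4i2, or 0.305 and 0.400 adjusted over the 4 pairs). After adjustment none of the 4 shares, those of Cox6a2 and Cox8b included, had a p under 0.05. Sign flips within cultures gave an exact p of 0.125 for each of the 4 shares, the smallest that 4 cultures allow. The partner genes Ndufa4 and Cox4i1 were higher in 4n in all 4 cultures, at 2.75 and 2.00 times the 2n mean CPM, while Ndufa4l2 and Cox4i2 stood at 0.905 and 1.09 times.

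**Figure D3:**
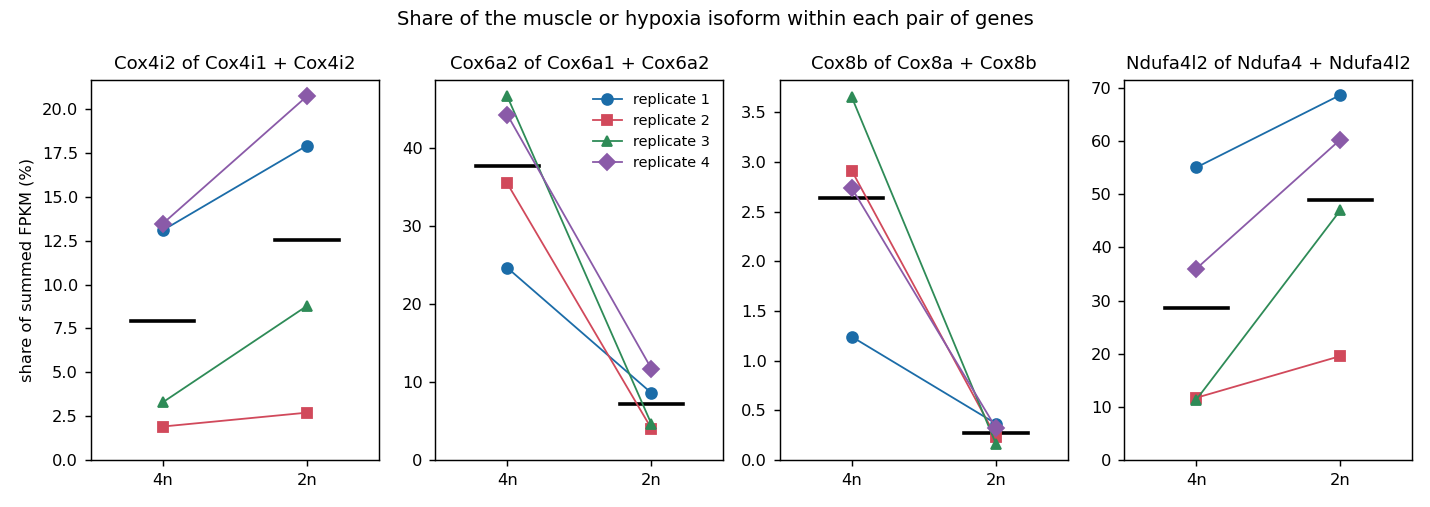
Share of each muscle or hypoxia-inducible gene in the summed FPKM of its pair, in percent from 0, with 4n on the left and 2n on the right. Lines join libraries of the same replicate number and black bars are means of 4 libraries. The Cox6a2 share is 24.6% to 46.6% in 4n and 4.02% to 11.7% in 2n, and the Ndufa4l2 share is lower in 4n along each line.

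Ordered by mean FPKM in 4n, Cox6a1 (422 ± 121) and Cox4i1 (372 ± 81.5) came first, followed by Cox6a2 (285 ± 179) and Cox8a (284 ± 90.5; SD, n = 4). All neighbours in that order had overlapping ranges, down to Cox8b at 8.21 ± 5.32. In 2n, Cox4i1 (224 ± 23.6) and Cox6a1 (198 ± 38.4) were first and did not overlap Cox8a (113 ± 12.3), the next in order (SD, n = 4). In the 2n order Cox6a2 was at 14.8 ± 6.13 FPKM, between Cox4i2 (33.3 ± 23.0) and the chromosome 8 row of Cox7a2 (13.04 ± 2.26), with ranges that overlapped both. Ndufa4l2, at 81.3 ± 45.8, stood next to Ndufa4, at 74.5 ± 14.4, in 2n, again with overlapping ranges (SD, n = 4).

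Cox4i2 and Ndufa4l2 differed between the cultures. Averaged over both fractions, Cox4i2 stood at 49.0, 6.71, 21.6 and 57.7 CPM in the cultures of replicates 1 to 4, and Ndufa4l2 at 102, 18.5, 50.9 and 96.8 CPM. In a test of the replicate number with the fraction in the model, added after seeing the data, both passed (edgeR adjusted p = 0.00160 and 0.00214), and they were 2 of 11 rows called. Of all genes, 8.21% were called by this test. Cox6a2, Cox8b and the other 7 rows did not pass it (edgeR adjusted p from 0.184 to 0.605). Without the culture of replicate 2, Cox4i2 had an edgeR adjusted p of 0.0471 and Ndufa4l2 of 0.0710, so the call of Ndufa4l2 rests on that culture. Ndufa4 was called between cultures when replicate 3 was left out (edgeR adjusted p = 0.0300), beside 2520 of 13019 genes called.

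Other targets of hypoxia-inducible factors, the transcription factors that respond to low oxygen, moved with the cultures too. Of 22 tested rows of a list of such targets, which leaves out Cox4i2 and Ndufa4l2, 19 were called between cultures. Of all 12983 genes, 1066 were called. Without the culture of replicate 2, 4 targets were called, against 224 of 13115 genes. Without that of replicate 4, 10 targets were called, against 64 of 12946 genes. The sum of the list was 11712, 4531, 11063 and 10927 CPM in 4n replicates 1 to 4, against 12465, 3992, 9423 and 9897 CPM in 2n. It was lowest in replicate 2 in both fractions, as for Cox4i2 and Ndufa4l2. Replicate 3 was close to replicate 4 in this sum but lower than replicate 4 in Cox4i2 and Ndufa4l2. Most of the sum came from Aldoa, Ldha, Eno1 and Pgk1, at 2426, 2022, 1755 and 1596 of 11063 CPM in 4n replicate 3. Among single targets, Ndrg1, Car9, Mxi1, Vegfa and Adm were lower in replicate 3 than in replicate 4 in both fractions, as were Cox4i2 and Ndufa4l2. Aldoa, Ldha and Eno1 were higher in replicate 3 in both.

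Between 4n and 2n, 0 of the 22 targets were called by edgeR, DESeq2 or limma-voom, and 0 had an unadjusted p under 0.05 in any of these fits. With the replicate block edgeR also called 0, while 7 were higher and 5 lower at unadjusted p under 0.05. Their median log2 fold change was 0.02. The smallest p values were those of Egln3, an oxygen-sensing prolyl hydroxylase (log2 fold change 1.41 ± 0.86 SE, edgeR adjusted p = 0.435), and P4ha1, a collagen prolyl hydroxylase (-0.43 ± 0.33 SE, edgeR adjusted p = 0.544).

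**Figure D4:**
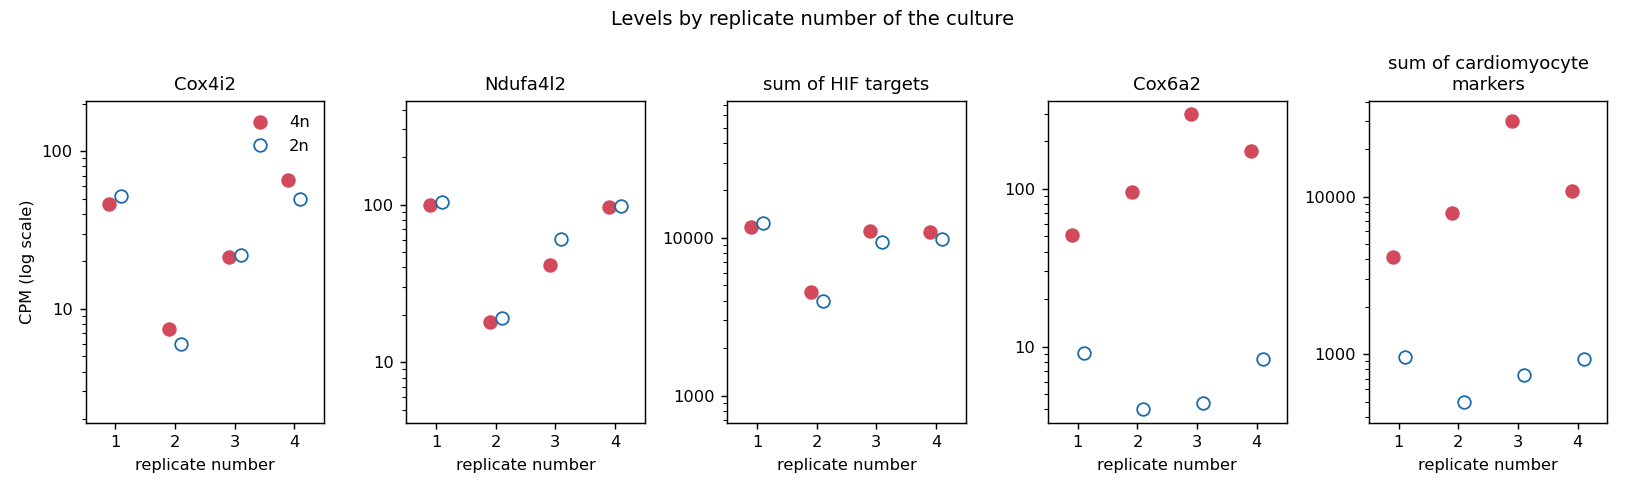
CPM of Cox4i2, Ndufa4l2, the summed targets of hypoxia-inducible factors, Cox6a2 and the summed cardiomyocyte markers, on log axes of equal span, by replicate number, with filled points for 4n and open points for 2n. In the first 3 panels the fractions of a culture lie close together and replicate 2 is lowest. In the last 2 panels the fractions lie apart in every culture.

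Cox4i2 and Ndufa4l2 are also known as genes of pericytes, the contractile cells that wrap capillaries. Of 12 markers of pericytes and smooth muscle, 11 were tested, and 0 were called between 4n and 2n by edgeR, where 1 was higher and 1 was lower at unadjusted p under 0.05, and 0 by DESeq2, with the same 2 counts. Between cultures, 6 of the 11 were called, against 8.21% of all genes, and these 6 held opposite patterns. Rgs5, Abcc9 and Kcnj8 were highest in replicate 4 in both fractions, and Acta2, Myh11 and Mcam, genes of smooth muscle contraction or adhesion, were highest in replicate 2 in both. Of the tested markers not called between cultures, Pdgfrb, Notch3 and Tagln were also highest in replicate 2 in both fractions. Cnn1 and Cspg4 were highest there in 2n only. The pericyte markers of the list thus did not share 1 pattern. The marker sum was 6236 to 11481 CPM in 4n and 6764 to 11040 CPM in 2n, and it was highest in replicate 2. Most of that sum came from Acta2 and Tagln, at 4712 and 3522 of 11481 CPM in 4n replicate 2. Abcc9, a potassium channel regulator of pericytes, had 85.4, 46.7, 78.4 and 268 CPM in 4n replicates 1 to 4, against 77.8, 44.1, 56.5 and 265 CPM in 2n. Abcc9 was lowest in replicate 2 in both fractions, as were Kcnj8, Cox4i2 and Ndufa4l2. Rgs5 was lowest in replicate 2 in 4n only, at 12.9, 9.07, 10.3 and 51.4 CPM in replicates 1 to 4. In 2n it had 7.13, 8.85, 7.79 and 43.2 CPM, lowest in replicate 1. Higd1b, another pericyte marker, had too few counts to be tested, at 0.161, 0.297, 0 and 1.02 CPM in 4n replicates 1 to 4 and 0, 0.0868, 0 and 0.521 CPM in 2n. Per 1000 counts of the marker sum, Ndufa4l2 had 14.05, 1.57, 6.61 and 12.6 counts in 4n and 15.5, 1.72, 7.41 and 11.7 counts in 2n. The part of these cells in the difference between cultures was not tested.

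The likeness of other genes to the isoforms was measured by Pearson correlation of log2 CPM over the 8 libraries, which share cultures and fractions, as a description. Closest to Cox6a2 were Nppb, the brain natriuretic peptide gene (0.997), Trim54, a muscle ubiquitin ligase (0.996), Actc1, cardiac actin (0.995), and Bmp7, a secreted growth factor (0.995). Nppb had 108, 218, 703 and 457 CPM in 4n replicates 1 to 4, against 22.3, 10.2, 13.7 and 27.8 CPM in 2n. Cox8b correlated with Cox6a2 at 0.989.

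Closest to Cox4i2 were Mxi1, an antagonist of MYC (0.986), P3h2, a collagen prolyl hydroxylase (0.985), Apln, the gene of the vasoactive peptide apelin (0.985), and Pgf, placental growth factor (0.981). Mxi1 is a member of the target list above. Apln had 32.4, 5.20, 15.5 and 67.1 CPM in 4n replicates 1 to 4, against 40.8, 2.21, 15.2 and 32.3 CPM in 2n. Closest to Ndufa4l2 were Ndrg1, a stress-induced gene of the target list (0.989), Mxi1 (0.983), Kazald1 (0.981) and Bet1l, which acts in vesicle transport (0.977). Cox4i2 and Ndufa4l2 correlated at 0.980 with each other, and Cox4i2 and Cox6a2 at 0.15.

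All 8 tested rows of the other nuclear-encoded subunits had positive log2 fold changes, from 0.83 to 1.71 with a median of 1.35. Of all 12983 genes, 6254 had positive values. The 8 rows count Cox6b1 on chromosome 1, the row at 1.71, and again on chromosome 2, at 1.53. In 4n replicate 3 these copies stood at 111 and 112 CPM, and as for Cox7a2 the level of either is uncertain. Of the 8 rows, 1 passed, against 2.67% of all genes called higher. This was Cox5b, a subunit facing the matrix, at 72.8, 108, 233 and 126 CPM in 4n replicates 1 to 4, against 46.2, 49.2, 46.9 and 37.2 CPM in 2n (log2 fold change 1.59 ± 0.32 SE, edgeR adjusted p = 0.0346). Under the block 3 of the 8 passed, Cox5b, Cox5a and Cox7c, at edgeR adjusted p from 0.0204 to 0.0491. The block called 554 of all 12983 genes higher. Leaving out 4n replicate 4 or any 2n library left 0 of the 8 called, and 0 of all genes. Leaving out 4n replicate 1 gave 7, beside 870 of 13104 genes called higher. Of the testis forms, Cox8c and Cox7b2 were at 0 in all libraries. Cox6b2, also known as a testis form, had 2.58, 2.16, 1.57 and 4.68 CPM in 4n replicates 1 to 4, against 1.65, 1.52, 1.22 and 1.80 CPM in 2n, and did not pass (edgeR adjusted p = 0.288).

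Of the 3 mitochondrially encoded subunits, which form the catalytic core, 3 rose, with log2 fold changes of 2.86 to 2.93 (edgeR adjusted p from 0.0346 to 0.0371). Mt-co1 stood at 12870, 109820, 113030 and 104660 CPM in 4n replicates 1 to 4, against 9950, 10727, 10738 and 13144 CPM in 2n. In 4n replicate 1 it was within the 2n range, unlike Cox6a2, which lay above every 2n library there. Fitted with the block, 0 of the 3 were called, with edgeR adjusted p from 0.0633 to 0.0767 and unadjusted p under 0.05 for each, and DESeq2 called 3. Leaving out any library other than 4n replicate 1 also left 0 called. Without 4n replicate 4 or any 2n library that held for all genes too.

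Of 19 assembly factors tested, 17 had positive log2 fold changes, with a median of 0.47, against the 6254 of 12983 genes above. The 2 that rose stand against 2.67% of all genes called higher. These were Cox17, the copper chaperone of the complex (1.38 ± 0.29 SE, edgeR adjusted p = 0.0413), and Higd2a, which helps assemble complex IV and its supercomplexes (1.27 ± 0.26 SE, edgeR adjusted p = 0.0397). Leaving out any library other than 4n replicate 1 left 0 of the 19 called. Of all genes, 0 were called without 4n replicate 4 or any 2n library. Leaving out 4n replicate 1 gave 6 of the 19, beside 870 of 13104 genes called higher. With the block Cox17 was called and Higd2a was not (edgeR adjusted p = 0.0253 and 0.0634). The related Higd1a, itself a target of hypoxia-inducible factors, was not called between 4n and 2n (edgeR adjusted p = 0.754) and was called between cultures (edgeR adjusted p = 0.00411). Its levels were 109, 28.5, 118 and 127 CPM in 4n replicates 1 to 4, against 104, 15.1, 86.1 and 80.9 CPM in 2n, lowest in replicate 2 in both fractions.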

How the data were processed

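Messenger RNA of 4 4n and 4 2n libraries was sequenced. Reads were aligned with HISAT2 2.0.4 to Rnor_6.0, per the submitters' processing notes. Which program counted reads, and with what strand setting, is not given in the sources used here. Deposited by the authors were whole-number counts, not normalized, and FPKM values, as named per the file headers. The deposited FPKM values equal the count divided by a whole-number length per gene and by the library total, mitochondrial genes included.

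Columns were matched to samples by their descriptions, and groups and replicate numbers come from the titles. The test on counts was that of edgeR 4.0.16 under R 4.3.3 (filterByExpr, TMM scaling, robust quasi-likelihood fit, two-sided, Benjamini-Hochberg over 12983 genes, threshold 0.05), with the group as the factor. SE is the log2 fold change over the square root of F. CPM uses TMM-scaled library sizes, so 1 CPM is 13.4 to 23.0 counts. Correlations use a prior count of 2 and within-culture differences add 0.1 CPM. Alternatives were a replicate block, DESeq2 1.42.0, limma 3.58.1 (voom, and log2(FPKM + 0.1)), other scalings and filters, and omission of libraries.

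Deviations from the group means correlated at 0.43, 0.58, 0.27 and 0.65 between libraries of the same number, each highest for its own number, and the descriptions of same-numbered libraries begin alike. The numbers were therefore taken to pair the libraries. The design states independent experiments.

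Named genes are the 10 isoform genes, members of the lists of other complex IV genes and targets of hypoxia-inducible factors past the threshold (at most 6 per list, otherwise the 2 with the smallest p), and the 4 genes most correlated with Cox6a2, Cox4i2 and Ndufa4l2 at 5 CPM or more in a group. Genes and markers named beside these, such as the pericyte and smooth muscle markers, Cox5a, Cox7c, Cox6b2 and Higd1a, were chosen after their values were seen. The members and lists were chosen with earlier results of these data known. Cox7a1 had no row, so its planned share was left out and 4 isoform shares were tested. The test between cultures and the sum of the Cox7a2 rows were added after seeing the data. Spellings of 3 listed symbols were matched to the table. The fits were also run on simulated counts with a lower dispersion than these data, whose common dispersion was 0.079. That run therefore does not measure how often the fits err here.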

Additional observations from a re-analysis of the deposited data

Results flagged for a closer look

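Among the 2n libraries, Cox6a1 in replicate 4 lay far from the others, at 72.6 CPM against 105 to 112 CPM in replicates 1, 2 and 3. Its gap to the nearest library exceeded Dixon's critical share of the range for 4 values. This was 1 of 30 groups of values examined, and chance flags about 1 in 20. No explanation was tested.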

How the results depend on the processing

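The calls depend on the test and on single libraries, and the cause was not tested. The edgeR fit called 347 genes higher and 1 lower. With the replicate block it called 554 higher and 79 lower, and called 3 other subunits, 0 mitochondrially encoded subunits and 1 assembly factor. DESeq2 called 926 genes higher and 81 lower, 8 isoform rows, 7 rows of other subunits and 5 assembly factors. Limma-voom called 0 genes in either direction, so 0 isoform rows, other subunits, mitochondrially encoded subunits or assembly factors, although 8 isoform rows had an unadjusted p under 0.05. Genes called lower were 12 on total-count scaling, 2 without mitochondrial genes and 15 with limma on FPKM. Of the mitochondrially encoded subunits 1 was called with no filter on low counts and 0 with limma on FPKM. Between cultures total-count scaling called 1914 genes.

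Leaving out 1 library gave 0 to 870 genes higher and 0 to 90 lower. It gave 0 to 8 isoform rows, 0 to 7 rows of other subunits, 0 to 3 mitochondrially encoded subunits and 0 to 6 assembly factors. Without 4n replicate 4 or any 2n library 0 of all genes were called, and 870 were called higher without 4n replicate 1. With the replicate block, leaving out the pair of replicate 1 gave 1254 genes higher and 399 lower, 8 isoform rows, 7 rows of other subunits, 3 mitochondrially encoded subunits, 9 assembly factors and 4 targets of hypoxia-inducible factors. Without the pair of replicate 3 it gave 558 genes higher and 50 lower, 5 isoform rows, 4 rows of other subunits, 0 mitochondrially encoded subunits and 1 assembly factor. Without that of replicate 2 or of replicate 4 it gave 0 calls in each of these sets. Between cultures, leaving out 1 pair gave 64 to 2520 genes, 1 to 3 isoform rows and 4 to 19 targets.

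Cox4i2 turned to a log2 fold change of -0.061 on total-count scaling and -0.11 on FPKM, and ranged from -0.36 to 0.47 without 1 library. Cox7a2l turned to -0.10 on total-count scaling and -0.11 on FPKM. Ndufa4l2 ranged from -0.46 to 0.16 without 1 library. Under every alternative run, Cox6a2, Cox8b, Cox8a, Cox6a1, Cox4i1, Ndufa4 and both Cox7a2 rows had positive fold changes. Exact tests of the shares cannot go below p = 0.0571 without 1 library. Cox8b rests on 1 or 2 counts in each 2n library.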
